A study of Homo sapiens with 3 samples.

Results

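Among the sites that the SOX4 antibody recovered in Hep3B cells, 231 peaks lay close to an end of a protein-coding gene and overlapped no peak of the STAT6 antibody. They were chosen from the 4513 peaks of the SOX4 list by 2 conditions. A peak had to share no base with a STAT6 peak, which left 3873, and its summit had to lie within 3000 bp of either end of a protein-coding gene of RefSeq (GRCh38.p14). The 231 peaks made up 5.12% of the SOX4 list and 5.96% of the SOX4 peaks without a STAT6 peak, and they lay near the ends of 262 genes. Since the members were chosen by where peaks had been called, their presence near genes and the absence of an overlapping STAT6 peak are part of the choice and not results.

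Hep3B is an established human hepatocellular carcinoma line, and no treatment of the cells is named. Chromatin was profiled by CUT&RUN with an antibody against SOX4, an antibody against STAT6 or a non-specific IgG, in 1 library each. Each list was called by the authors against the IgG library, and the values are those of single libraries with no replicate check. SOX4 and STAT6 peaks were compared by the study to find genes at which both factors bind.

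SOX4 is a transcription factor of the SRY-related HMG-box family, which bends DNA by inserting into the minor groove, and it is abundant in embryonic tissues and in many carcinomas. STAT6 is activated downstream of the interleukin-4 receptor, after which it enters the nucleus as a dimer and binds paired half-sites. The promoter of a gene lies around its transcription start, while the other end of a gene is where its annotated transcript ends.

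The sequence of promoters covered whole by a member is shown first, for the strongest such members and not for the strongest members of all. The stretches below are the 250 bases before the annotated transcription start of 5 genes whose promoter window was covered whole by a member, in RefSeq GRCh38.p14 (hg38), 5′ to 3′ on the strand of the gene, with every CG dinucleotide in capitals. AMY1A lay at chr1:103655510-103655759, plus strand, CYP4F3 at chr19:15641062-15641311, plus strand, MCC at chr5:113488454-113488703, minus strand, ZNF611 at chr19:52735045-52735294, minus strand and PRKACB at chr1:84077829-84078078, plus strand. They are the members of highest fold enrichment with a covered window, with the copies of AMY1A and a further gene left out. For AMY1A, its copies and CYP4F3 the annotated start lay inside the gene. Distances to a start below are from the outer end of the whole gene instead.
AMY1A: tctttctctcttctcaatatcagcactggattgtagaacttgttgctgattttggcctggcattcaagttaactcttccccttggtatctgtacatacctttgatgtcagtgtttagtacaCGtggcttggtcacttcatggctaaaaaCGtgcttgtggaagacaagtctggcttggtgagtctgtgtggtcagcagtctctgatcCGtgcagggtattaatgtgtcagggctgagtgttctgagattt
CYP4F3: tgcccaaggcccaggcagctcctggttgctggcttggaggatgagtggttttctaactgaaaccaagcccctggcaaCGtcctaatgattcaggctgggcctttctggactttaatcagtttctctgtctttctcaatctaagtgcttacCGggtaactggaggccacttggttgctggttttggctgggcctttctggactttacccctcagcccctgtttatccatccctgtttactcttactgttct
MCC: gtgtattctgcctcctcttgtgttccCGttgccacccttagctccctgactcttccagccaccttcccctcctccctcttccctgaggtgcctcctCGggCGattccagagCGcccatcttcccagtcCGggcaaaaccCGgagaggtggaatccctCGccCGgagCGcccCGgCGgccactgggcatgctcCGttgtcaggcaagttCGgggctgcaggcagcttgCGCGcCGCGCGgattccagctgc
ZNF611: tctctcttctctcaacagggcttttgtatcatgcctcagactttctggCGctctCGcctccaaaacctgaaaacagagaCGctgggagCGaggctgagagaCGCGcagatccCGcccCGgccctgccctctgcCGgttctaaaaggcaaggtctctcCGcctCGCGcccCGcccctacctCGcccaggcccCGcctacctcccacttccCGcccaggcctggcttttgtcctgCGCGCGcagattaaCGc
PRKACB: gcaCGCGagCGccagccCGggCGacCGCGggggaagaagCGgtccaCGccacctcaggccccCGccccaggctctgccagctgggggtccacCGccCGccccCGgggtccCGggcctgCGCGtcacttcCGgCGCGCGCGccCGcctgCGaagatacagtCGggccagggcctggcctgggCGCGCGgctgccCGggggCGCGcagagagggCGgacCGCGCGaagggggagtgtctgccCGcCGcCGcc

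The 5 promoters were of different kinds. The stretch of AMY1A, which encodes salivary amylase, held 3 CG dinucleotides and 44.8% G and C, and that of CYP4F3, a hydroxylase of leukotriene B4, held 2 and 50.8%. The stretch of MCC, a gene mutated in colorectal cancers, held 18, that of the zinc finger gene ZNF611 held 20 and that of PRKACB, a catalytic subunit of protein kinase A, held 37 with 80.8% G and C. The same 250 bases before AMY1B (chr1:103696211-103696460, minus strand) and AMY1C (chr1:103749648-103749897, plus strand) differed from those of AMY1A at 0 positions. None of these stretches held a SOX core motif as searched here, on both strands, as ACAAAG, as its relative ACAATG and as the further form AACAAT. The SOX4 consensus given in the paper is wider and also allows TCAAAG and TCAATG, which were not searched. The stretch of AMY1A, and so those of AMY1B and AMY1C, holds ATCAAAG on the opposite strand. The absence therefore holds for the searched forms only.

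A SOX core motif in a searched form was present in the promoter windows of 7 of the genes. Of each, 30 bases around the motif are shown on the strand of the gene, with the motif in capitals. They lay at chr4:61200107-61200136, plus strand for ADGRL3, chr5:171419546-171419575, plus strand for FGF18, chr18:63970093-63970122, plus strand for SERPINB8, chr1:44405019-44405048, plus strand for RNF220, chr2:202912168-202912197, plus strand for CARF, chr2:202911757-202911786, minus strand for WDR12 and chr3:4303126-4303155, plus strand for SETMAR.
ADGRL3: tggagaggtaccCTTTGTctgacaaaccct
FGF18: gccccgcatcctCATTGTgccggctcgggc
SERPINB8: cgtgaagcatctACAAAGgaggaatagtca
RNF220: tctctttagttcACAATGgctcgcgacccc
CARF: agaggcggaaatACAAAGaaaagaacggat
WDR12: gggaagaattctAACAATgattaaagggac
SETMAR: taaagcacctcaCTTTGTttcgtccgtacc

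ADGRL3, an adhesion receptor of neurons, had the strongest of these peaks, with a fold enrichment of 13.0, and its motif lay 385 bp from the summit. FGF18, a fibroblast growth factor, followed with 9.84, with the motif 539 bp from the summit. In SERPINB8, a serine protease inhibitor, the motif lay 26 bp from the summit, closer than in the other genes, and the fold enrichment was 8.48. The motif of CARF, a calcium-responsive transcription factor, lay 87 bp from a summit that it shares with WDR12, a ribosome biogenesis factor whose window held ACAATG overlapping a match to AACAAT. The stretches of RNF220 and SETMAR lay outside the peak itself, at 404 bp and 619 bp from the summit.

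Promoter windows, from 250 bases before to 50 after an annotated start, could be examined for 46 windows of 42 genes, which were overlapped by 39 members. A SOX core motif was found in 7 of the 46 windows, or 15.2% (95% Wilson interval 7.57% to 28.2%), beside 23.8% of all 22175 protein-coding windows of the same length. A STAT motif, searched as TTCNNNGAA or with a spacer of 4 bases between the same half-sites, was found in 6, or 13.0% (6.12% to 25.7%), beside 11.7%. Among the 26 windows overlapped by a member with a fold enrichment of at least 5, the SOX core share was 23.1% (11% to 42.1%). Neither motif was more frequent at the members than over all promoters by more than the interval allows. These intervals treat the windows as independent, although some lie under the same peak and the stretches of the AMY1 copies are identical. Counted by member, a SOX core motif was found at 6 of 39, or 15.4% (7.25% to 29.7%). The median G and C content was 63.0%, beside 62.3% over all windows. The median ratio of observed to expected CpG was 0.832, beside 0.737, and 78.3% of the overlapped windows had a ratio of at least 0.6, beside 62.2% of all. The SOX core counts cover the searched forms only and not the whole consensus given in the paper. A match to the letters is a description of the window and not evidence of binding.

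**Figure D1:**
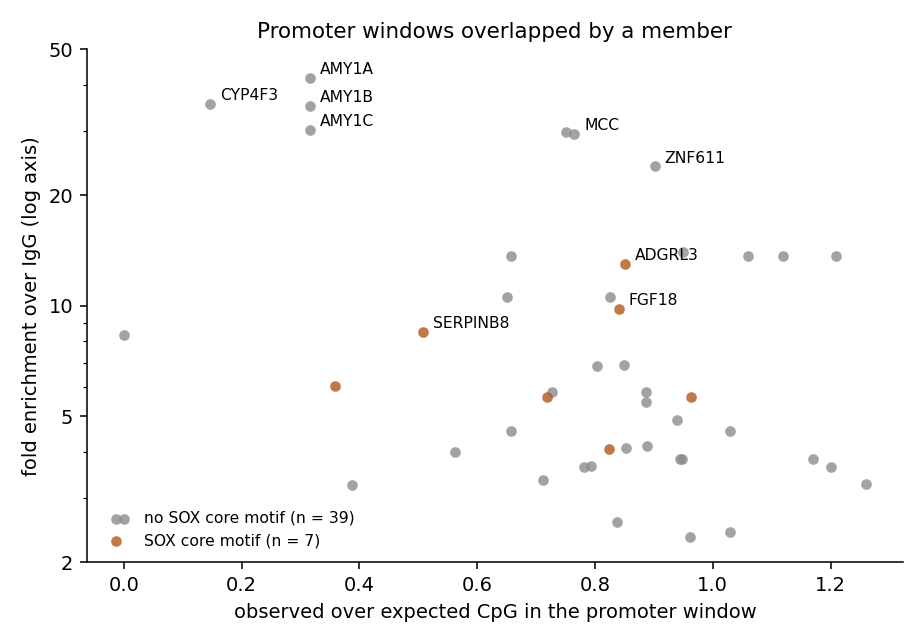
Each point is 1 of 46 promoter windows overlapped by a member, with the ratio of observed to expected CpG in the window on the x axis and the fold enrichment of the peak over IgG on a log y axis. Orange points mark the 7 windows with a SOX core motif, with fold enrichments of 4.08 to 13.0, while the amylase genes and CYP4F3, at ratios of 0.316 and 0.146, hold the highest points.

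The fold enrichment of the members, which is the authors' ratio of SOX4 over the expected background at the summit, ran from 2.34 to 99.9 with a median of 5.10 (95% interval of the median 4.58 to 6.01) and quartiles of 3.64 and 9.93. The value was 5 or more in 119 members, or 51.5% (45.1% to 57.9%), beside 58.8% of all SOX4 peaks and 52.9% of the SOX4 peaks without a STAT6 peak. It was 10 or more in 58 members, or 25.1% (20% to 31.1%), beside 29.2% and 18.5%. Of the other SOX4 peaks without a STAT6 peak, 1116 lay inside genes, with a median of 5.83 and 23% (20.7% to 25.6%) at 10 or more. The 2526 outside genes had a median of 5.10 and 15.8% (14.5% to 17.3%). The share of strong peaks at gene ends was thus within counting error of that inside genes. The SOX4 peaks that overlapped a STAT6 peak had a median of 95.5. Intervals cover the counting of peaks only, and peaks are not replicates of a condition.

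The number of sequenced fragments behind each value could be recovered from the files. In both lists the deposited fold enrichment and −log10 p together fix a whole number of fragments at the summit and an expected background, if the fold enrichment is taken as fragments plus 1 over background plus 1 and p as the upper Poisson tail. This held for all 4513 SOX4 peaks and all 1078 STAT6 peaks, with −log10 p met to a relative 0.0001 or better. The lowest background in the SOX4 list was 4.49 fragments, which 1982 peaks shared, and in the STAT6 list it was 2.16, so that the SOX4 background was 2.07 times the STAT6 one. The fragments cannot be traced to separate molecules, so the intervals below cover counting error only.

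The 231 members rested on 15 to 547 fragments at the summit, with a median of 33.0 and quartiles of 22 and 59.5. In 94 of them (40.7%) the expected background was at the lowest level of the list, so that their fold enrichments were set against the same level. The shared peaks had a median of 606 fragments. The peak of CNOT6L, a subunit of the mRNA deadenylase complex, rested on 15 fragments against 4.49, the fewest of any member. TSPY2, a gene of a multicopy testis-specific family on chromosome Y, had the most, with 547 (95% Poisson interval 502 to 595).

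The background was more than 1.5 times the lowest level at 35 members (15.2%), where a given number of fragments makes a lower fold enrichment. PGK1, a glycolytic kinase, had 99 fragments over a background of 40.3, which gave a fold enrichment of 2.42 (1.97 to 2.94). The peak between RNF141, a RING finger gene, and AMPD3, an AMP deaminase, also overlapped the pseudogene MTRNR2L8. It had 140 fragments over 22.5, which gave 6.01 (5.06 to 7.08). POLR2J2, a copy of an RNA polymerase II subunit gene, had 41 over 14.2. The median fold enrichment of these 35 members was 3.63, and their median number of fragments was 41.0.

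**Figure D2:**
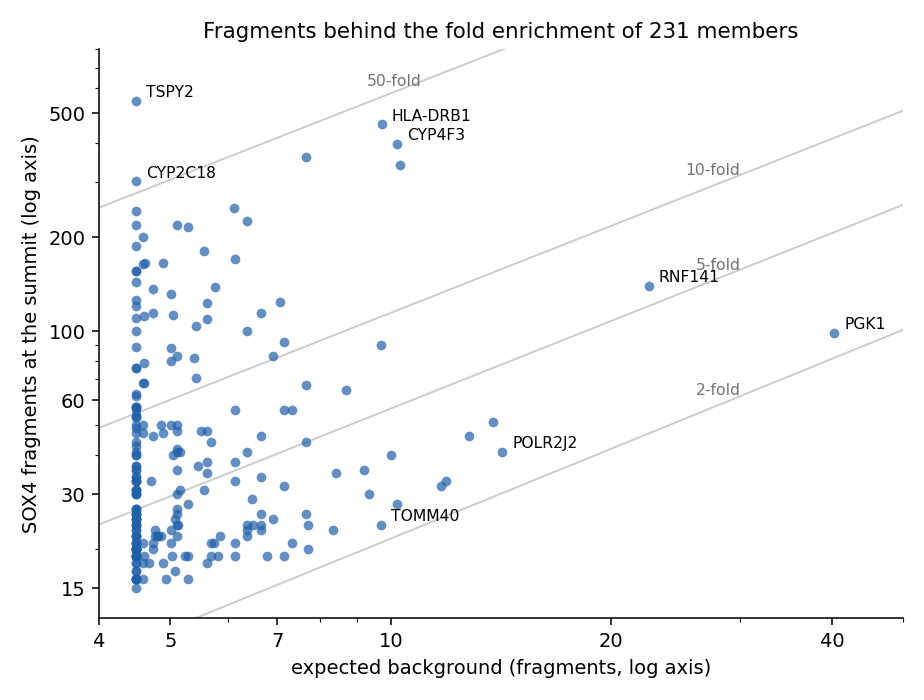
Each point is 1 of the 231 members, with the expected background in fragments on the x axis and the SOX4 fragments at the summit on the y axis, both on log scales, and grey lines of equal fold enrichment. The column of points at the left holds the 94 members at the lowest background of 4.49 fragments, and PGK1 stands at the right with 40.3.

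The STAT6 list had a lower background, which bears on the absence of a STAT6 peak. At its lowest background, the weakest STAT6 peak had 10 fragments and a fold enrichment of 3.48, whereas the weakest SOX4 peak had 14 fragments and 2.73. The fold enrichment of 50 members (21.6%) was below 3.48, all 5 peaks at histone genes among them. Of these 50, 16 had a SOX4 background more than 1.5 times the lowest. Weaker peaks can be called where the background is higher, so that 3.48 is a limit only for sites at the lowest STAT6 background, which is not known for single members. Wide and narrow members followed the same order. In the 80 members with a fold enrichment under 4 the median width was 414 bp, in the 93 from 4 to under 10 it was 854 bp and in the 58 of at least 10 it was 1274 bp.

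The widest members were not the strongest. A peak at CYP4F8, a fatty acid hydroxylase, spanned 2291 bp with a fold enrichment of 34.4, and the peak of RNF141 spanned 2084 bp with 6.01. MCUB, a subunit of the mitochondrial calcium uniporter that dampens uptake, had 1772 bp and 9.12. RNF175, a RING finger gene, had 1697 bp and 36.1, and LOC124907874, an uncharacterised gene, had 1686 bp and 15.5. HLA-DRB1, the beta chain of a major histocompatibility class II molecule, was narrow for its strength, with 940 bp and 43.0.

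**Figure D3:**
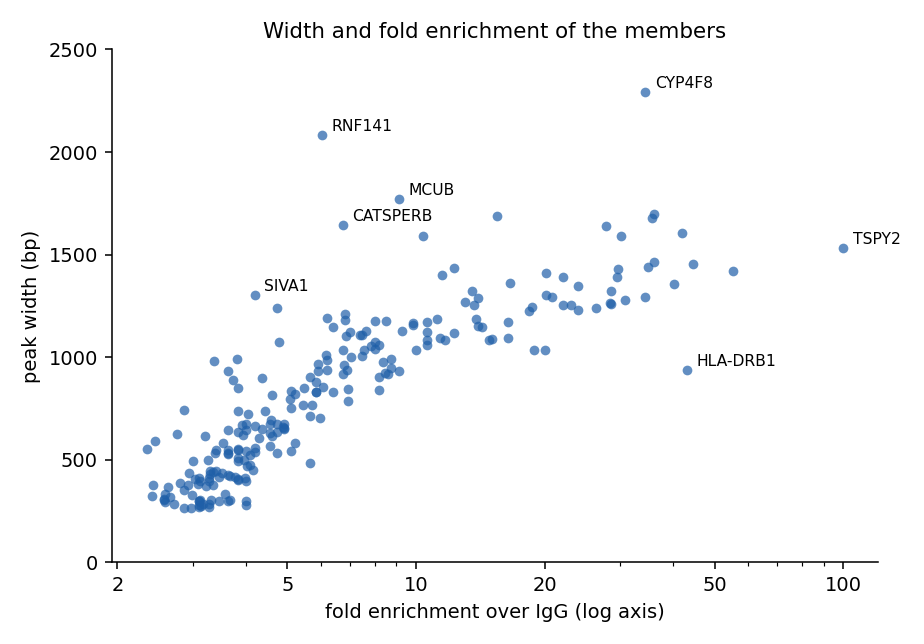
Each point is 1 member, with the fold enrichment over IgG on a log x axis and the peak width in bp on the y axis. Width rises from a median of 414 bp below a fold enrichment of 4 to 1274 bp at 10 or more, and CYP4F8 and RNF141 stand above the rest at 2291 and 2084 bp.

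The distance of the members from the gene ends was set beside the amount of sequence at the same distance. Within 3000 bp of either end lay 5.96% (5.26% to 6.75%) of the SOX4 peaks without a STAT6 peak and 6.43% of the sequence, so that the class as a whole was not gathered near gene ends. Closer to the starts the shares parted. Within 500 bp of a start lay 44 peaks, or 1.14% (0.847% to 1.52%), beside 0.485% of the sequence. Within 500 bp of the other end lay 13 peaks, or 0.336% (0.196% to 0.573%), beside 0.496%. Within 3000 bp of the other end the share was 1.86% (1.48% to 2.33%), beside 2.83%. Of the SOX4 peaks that overlapped a STAT6 peak, 30.2% (26.7% to 33.8%) lay within 3000 bp of either end.

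The strand was known for the nearest gene of 183 members. For 121 of these, or 66.1% (59.0% to 72.6%), the nearest end was the start, with a median fold enrichment of 4.74 and a median width of 738 bp. For 62, or 33.9% (27.4% to 41.0%), it was the other end, with a median of 6.29 and 950 bp. The members at starts were thus more numerous and weaker. The summit lay inside the nearest gene in 90 of the 231 members, or 39.0% (32.9% to 45.4%), and these had a median of 6.13. Over all members the median fold enrichment was 6.74 in the 67 members within 500 bp, 5.70 in the 43 from 501 to 1000 bp, 5.10 in the 57 from 1001 to 2000 bp and 4.40 in the 64 from 2001 to 3000 bp, while the median background fell from 5.07 to 4.49 fragments between the first and the last class. The fall was not seen at each kind of end. At starts the medians were 5.65 within 500 bp, 4.28 up to 1000 bp and 4.57 beyond, at other ends they were 6.83, 7.23 and 5.10, and in the 48 members without a strand they were 11.5, 4.56 and 4.66.

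**Figure D4:**
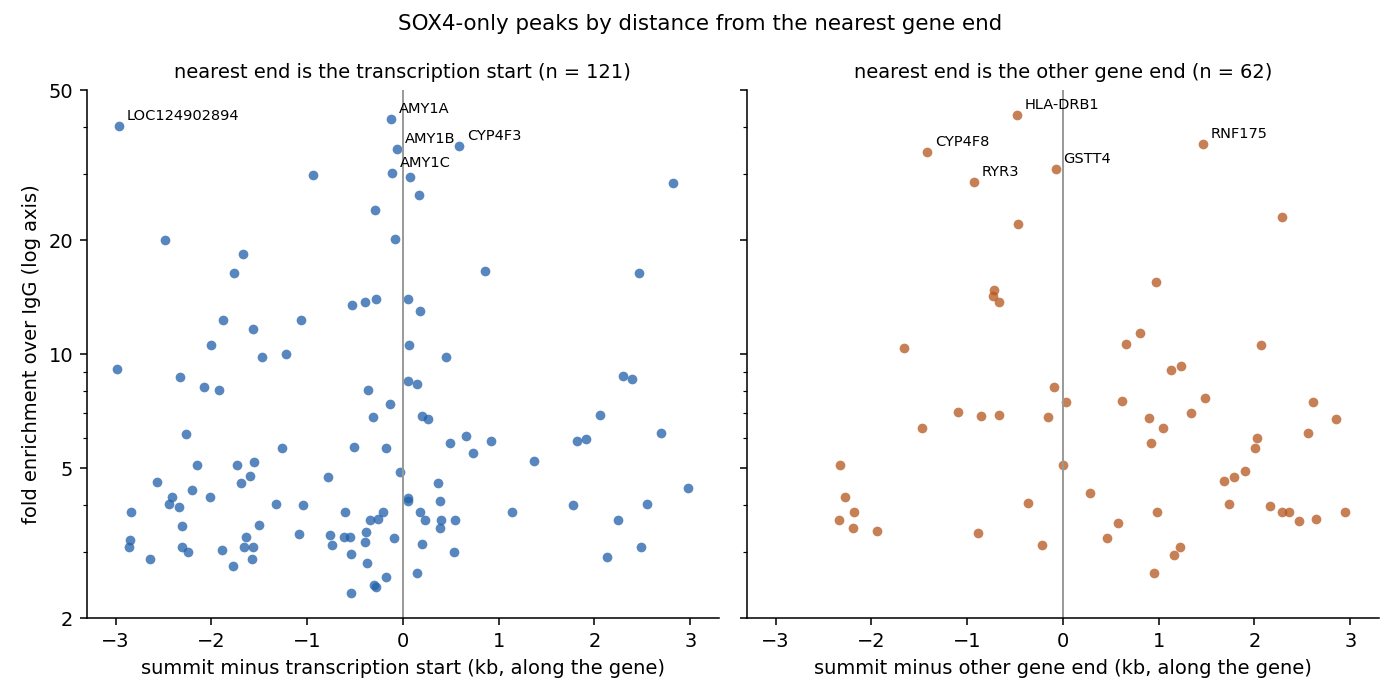
Each point is 1 of the 183 members with a known strand, with the distance of the summit from the nearest gene end in kb, positive in the direction of transcription, on the x axis and the fold enrichment over IgG on a log y axis. The left panel holds 121 members nearest a transcription start, with AMY1A, AMY1B and AMY1C just before it, and the right panel holds 62 nearest the other end.

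The summits closest to a gene end belonged to DYNC1H1, the heavy chain of cytoplasmic dynein, at 4 bp from the other end with a fold enrichment of 5.10, and to RAET1G, a stress ligand of the NKG2D receptor, at 33 bp with 7.47. BCL2L11, the pro-apoptotic protein BIM, followed at 35 bp from its start with 4.88, and C8orf33 at 38 bp with 6.73. PRKACB lay at 50 bp from its start with 14.0, SERPINB8 at 52 bp with 8.48, HNRNPA1L3 at 53 bp with 36.0, RGS2 at 54 bp with 4.16, CPPED1 at 56 bp with 4.09, and CYP4F12 and FBXW7 at 63 bp with 27.8 and 10.6. The nearest summits thus belonged to weak and strong peaks alike. At the 3000 bp limit the choice was arbitrary. DCAF4L2, POLR1F, LOC124902894, LSS and MCUB lay just inside, at 2889 to 2989 bp, with fold enrichments of 2.87, 3.82, 40.1, 4.42 and 9.12. CLDN10, ZNF699, POLQ, PPP6R2 and DDT lay just outside, at 3017 to 3081 bp, with 4.62, 6.33, 10.9, 3.40 and 4.07.

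By function, the genes were sorted into 16 groups of 196 genes from general knowledge, after the names and values had been seen, and 66 genes were given no group. Groups are compared by their medians only, a peak between 2 genes counts in the group of each, and no group was tested against the others. The highest median belonged to genes of drug and xenobiotic metabolism, with 10.6 over 15 members. Among its genes, CES1, CYP2C18, CYP4F3, CYP4F8, CYP4F12, SLCO1B3 and SULT1A3 also held a SOX4 peak that overlapped a STAT6 peak. Over all groups, members at such genes had a median of 25.9, against 4.92 at the other genes. The lowest group medians belonged to histones with 3.26 over 5 and to transcription and chromatin with 3.64 over 24.

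**Figure D5:**
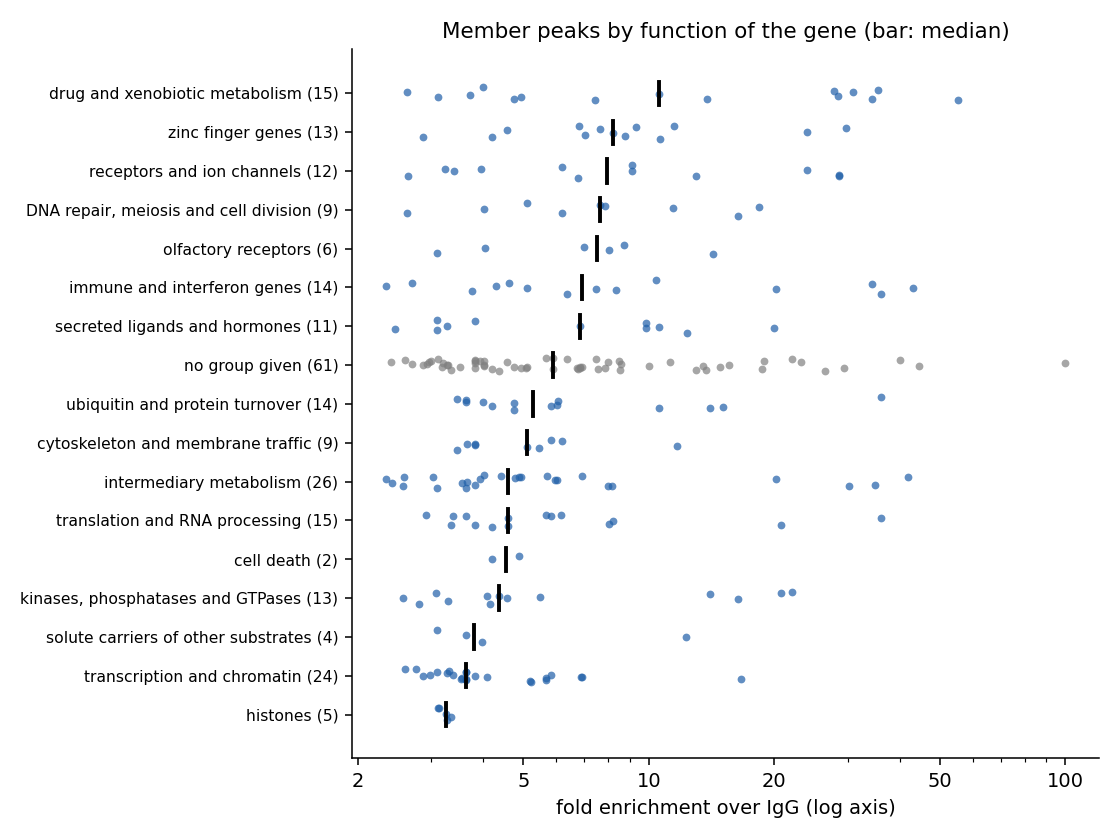
Each point is a member in the function group of its gene, the number of members is given in parentheses, the x axis is the fold enrichment over IgG on a log scale and the black bars are medians. Drug and xenobiotic metabolism has the highest median at 10.6 and histones the lowest at 3.26, and most groups span the range from about 3 to over 10.

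Among genes of drug and xenobiotic metabolism, 4 cytochromes P450 had members, of 55 in the gene table (7.27%, beside 1.31% of all protein-coding genes). SOX4 peaks that overlapped a STAT6 peak lay near an end of 26 of these 55, beside 162 of all 20056 protein-coding genes. CYP2C18, of the 2C cluster on chromosome 10, had 55.2 (302 fragments over 4.49) at a summit 186 bp from one end and 4.74 at 1880 bp from the other. CYP4F3 had 35.6 (398 fragments over 10.2), CYP4F8 had 34.4 and 28.4, and CYP4F12 had 27.8. All these P450 genes also held a SOX4 peak that overlapped a STAT6 peak, in the gene or 1000 bp around it, so that the gene as such was not free of STAT6. The glutathione transferase gene GSTT4 had 30.9, at 74 bp from its other end, and lay 4018299 bp from the nearest STAT6 peak. SLCO1B3, a hepatic uptake transporter of bile acids and drugs, had 13.8, and the alcohol dehydrogenase ADH7 had 10.6. UGT2B7, a glucuronosyltransferase, had 7.41 at 137 bp from its start. Lower values were given to CES1 (a carboxylesterase, 4.92), FMO5 (a flavin monooxygenase, 4.0), ALDH3B2 (an aldehyde dehydrogenase, 3.72), ABCC3 (an efflux pump, 3.12) and SULT1A3 (a sulfotransferase, 2.63).

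Of the 26 members at genes of intermediary metabolism, the strongest were at the amylase cluster of chromosome 1. AMY1A had 41.9 (362 fragments over 7.66), AMY1B 35.0 (248 over 6.11), AMY1C 30.2 (340 over 10.3) and AMY2A, the pancreatic form, 20.2. All 4 summits lay before the start, at 126, 65, 117 and 80 bp. Because the stretches before AMY1A, AMY1B and AMY1C are identical, fragments from one could have been placed at another, and the 3 values are uncertain as values of single genes. The other 22 members of the group lay between 2.34 and 8.17 and were at genes of varied steps. They included GALC (a lysosomal galactosidase, 8.17), LYPLA1 (a depalmitoylating thioesterase, 8.0), DPEP1 (a dipeptidase, 6.92), CA10 (a carbonic anhydrase-related protein, 5.96), NFU1 (an iron-sulfur cluster scaffold, 5.70), CAT (catalase, 4.92), SELENOP (the selenium carrier of plasma, 4.77), LSS (lanosterol synthase, 4.42), CPT1A (which admits fatty acids to mitochondria, 4.02), MTTP (which loads lipid onto apolipoprotein B, 3.83), PARL and LACTB (mitochondrial proteases, 3.93 and 3.66), and GGCT (of glutathione breakdown, 2.59). DLD, the dihydrolipoamide dehydrogenase of mitochondrial complexes, had a pair of peaks before its start at 2862 and 1885 bp, with 3.10 and 3.04.

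The 14 members at immune and interferon genes had a median of 6.92. HLA-DRB1 led them with 43.0 (460 fragments over 9.72), at 480 bp from the other end and 857 bp from a STAT6 peak. A peak of 36.1 had its summit inside TLR2, the receptor of bacterial lipoproteins, at 1935 bp from its other end, where the gene overlaps the end of RNF175, and lay 877675 bp from the nearest STAT6 peak. CCR8, a chemokine receptor, had 34.4, at a summit 2527 bp from the gene, in a peak that overlapped an HNRNPA1 pseudogene. APOL1, the trypanosome-lysing apolipoprotein, had 20.2. The interferon-induced genes GBP4, IFI44L and GBP5 had 10.4, 8.35 and 3.77, RAET1G had 7.47, and IL12RB2, a subunit of the interleukin-12 receptor, had 6.38. PVRIG (an inhibitory receptor of lymphocytes) had 5.10, IGSF6 4.61, CCR10 2.71 and NECTIN2 2.34.

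IL4R encodes the receptor chain through which interleukin-4 activates STAT6. Its member had 25 fragments over a background of 5.07, which gave a fold enrichment of 4.28 (2.83 to 6.25), at 284 bp beyond the other end of the gene, and the nearest STAT6 peak was 1226481 bp away. It was the only one of 29 listed genes of JAK-STAT and interleukin-4 signalling with a member (3.45%, beside 1.31% of all protein-coding genes). Nothing is read from 1 gene.

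Receptors and ion channels had 12 members and a median of 7.93. ADRB3, the β3 adrenergic receptor, and RYR3, a calcium release channel of the endoplasmic reticulum, both had 28.6, since each rested on 156 fragments over the lowest background. KCNK15, a potassium channel of the K2P family, had 24.0, ADGRL3 13.0, MCUB 9.12 and MAS1, a receptor of angiotensin-(1-7), 9.11. CATSPERB, of the sperm calcium channel, had 6.74 and TNFRSF19 3.96. GJB2 (connexin 26), GPR55 and GRM4 lay at 3.41, 3.23 and 2.65. Secreted ligands and hormones had 11 members and a median of 6.85. C1QTNF12, an adipokine, had 20, PPY, pancreatic polypeptide, 12.3 and EPO, erythropoietin, 10.6 at 2001 bp before its start. FGF18 and GPR15LG both had 9.84. UTS2B and OSTN shared a peak of 6.85, and CER1, GAS6, APELA, PTN and C1QTNF3 lay between 2.45 and 3.83.

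Of 599 zinc finger genes in the gene table, 13 had a member (2.17%, beside 1.31% of all protein-coding genes), with a median of 8.18. ZNF586 had 29.7 at 942 bp before its start and ZNF611 24.0 at 296 bp before, and ZNF888 had 11.5 and a second peak of 8.18 shared with ZNF320. ZNF14 had 10.6, ZNF589 9.29, ZNF875 8.75, ZNF511 7.65, ZNF23 7.04 and ZNF773 6.79, while ZNF512B, ZNF850 and ZNF557 had 4.56, 4.19 and 2.87. Many of these genes lie in clusters on chromosome 19. That chromosome held 23 members, or 9.96%, beside 3.20% of the SOX4 peaks without a STAT6 peak and 7.23% of protein-coding genes. Of its SOX4 peaks without a STAT6 peak, 18.5% were members, beside 5.96% over all chromosomes. The share was also above 5.96% on others, such as chromosomes 17 (14.1%), 16 (13.3%), 22 (10.4%) and 20 (10.1%). Chromosome 1 held the most members, 27 (11.7%).

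Transcription and chromatin genes had 24 members, of which NR4A3 alone had a fold enrichment of at least 10. NR4A3, an orphan nuclear receptor induced by many stimuli, had 16.6 (109 fragments over 5.62) at 853 bp from its start. MBD6, a methyl-CpG-binding domain protein, and DDIT3, the stress factor CHOP, shared a peak of 6.92. DR1, a repressor of RNA polymerase II initiation, had 6.88, ELF1, an ETS factor, 5.83, CARF and AFF2 5.65, and IRF2BPL and CABIN1 5.20. The rest, SETMAR, POLR1F, BBX, SMARCA5, PCGF2, RREB1, HES7, TBL1XR1, NPM2, ELF3, HBP1, INTS14, TLE3, ZMYND8, POLR2J2 and POLR2J3, lay between 2.59 and 4.08. They include the chromatin remodeller SMARCA5, the Polycomb protein PCGF2 and the Groucho corepressor TLE3.

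Histone genes were the group with the largest part of its list, with 10 of 94 core and linker histone genes (10.6%, beside 1.31% of all protein-coding genes), but they shared 5 weak peaks. These lay in the histone cluster on chromosome 6 at H3C4, H2AC7 and H2BC7, at H4C3, at H2AC4 and H3C2, at H2AC6 and H2BC4, and at H3C3 and H2BC3. Their fold enrichments were 3.36, 3.27, 3.26, 3.14 and 3.12. They rested on 22 to 24 fragments over backgrounds of 5.85 to 6.64, against a median background of 4.77 over all members. Histone genes are short and closely packed, so that 1 peak is near the ends of several.

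Genes of RNA and translation had 15 members with a median of 4.59. HNRNPA1L3, an intronless relative of the splicing factor HNRNPA1, had 36.0 and RPL23A, a protein of the large ribosomal subunit, 20.8 in a peak shared with RAB34. RPS23, of the small subunit, had 8.20, RNASET2, a lysosomal ribonuclease, 8.02, SNRPB, a core spliceosomal protein, 6.15, WBP4 5.83 and WDR12 5.65. MRPL15, MTIF2, PTCD1, REXO2, EIF5A, MRPS23, EEF2 and CNOT6L lay between 2.92 and 4.59. Of 84 listed ribosomal protein genes RPL23A and RPS23 had a member (2.38%, beside 1.31% of all protein-coding genes).

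The peaks of RPL23A and HNRNPA1L3 belonged to a wider pattern over processed copies of RPL23A and HNRNPA1. A total of 6 members lay at RPL23A, at HNRNPA1L3 or on a pseudogene of RPL23A or HNRNPA1, namely those of PGAP6 (26.4, on RPL23AP5), HNRNPA1L3, RPL23A, LOC124907874 (15.5, on RPL23AP7), CCR8 (34.4, on HNRNPA1P21) and XKRX (22.1, on HNRNPA1P27). For PGAP6, CCR8 and XKRX the gene named by distance is thus not the only annotation at the peak. Over the genome, 62 of 95 RPL23A pseudogenes (65.3%) were overlapped by a SOX4 peak, with a median fold enrichment of 23.1 and a range of 7.84 to 135, and so were 64 of 75 HNRNPA1 pseudogenes (85.3%). In 69 other pseudogene families of at least 20 copies, 9 of 2610 copies (0.345%) were. The families were looked at after the peaks had been seen, and fragments from near-identical copies can be misplaced. In all, 11 members (4.76%) overlapped a pseudogene, beside 6.40% of the SOX4 peaks without a STAT6 peak. Besides those of PGAP6, LOC124907874, CCR8 and XKRX they were the members of HSDL1, RNF141, PVRIG, XPA, PARL, GBP5 and H3C3. The summits of 22 members (9.52%) lay in a gene of a long noncoding RNA. Such genes were overlapped by 28 members (12.1%), beside 15.6% of the SOX4 peaks without a STAT6 peak.

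The 13 members at kinases, phosphatases and GTPases had a median of 4.37. DUSP12, a dual-specificity phosphatase, had 22.1, RAB34 shared the peak of 20.8 with RPL23A, SSH1, the cofilin phosphatase, had 16.4, and PRKACB 14.0. YES1, a SRC-family kinase, had 5.47, RPS6KA3, a kinase downstream of ERK, 4.56 and BCAR3 4.37. RGS2, CPPED1, PPM1B, PIK3CA (the catalytic subunit of phosphoinositide 3-kinase alpha), RAP2A and DUSP10 lay between 2.57 and 4.16. Ubiquitin and protein turnover had 14 members with a median of 5.28. RNF175 had 36.1, RNF19A 15.1, UBE2D2, a ubiquitin-conjugating enzyme, 14.0 and FBXW7, the receptor that marks MYC and cyclin E for degradation, 10.6. RNF220, RNF141, UBE2J2, RNF150, VCP, UBE2F, TRIM17, MIB1, PSMB3 and CAND1 lay between 3.46 and 6.06.

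DNA repair, meiosis and cell division had 9 members with a median of 7.65. NSMCE3, of the SMC5/6 complex, had 18.4, RFC4, of the clamp loader of DNA replication, 16.4 and TERB2, which holds meiotic telomeres at the nuclear envelope, 11.4. RDM1, TUBGCP2, CEP70, STAG3 (a meiotic cohesin), XPA (of nucleotide excision repair) and SLX1A followed with 7.85, 7.65, 6.20, 5.10, 4.01 and 2.63. Of 392 olfactory receptor genes 6 had a member (1.53%, beside 1.31% of all protein-coding genes). These were OR52K1 at 14.3, OR7A17 at 8.72, OR7E24 at 8.03, OR2H1 at 7.0, OR6C74 at 4.05 and OR5T1 at 3.10. Cytoskeleton and membrane traffic had 9 members with a median of 5.10, from OSBPL11, a lipid transfer protein, at 11.7 to YIPF4 at 3.46, with SH3GLB2, CCDC91, STMN4, DYNC1H1, CAMSAP3, HPS5 and VTA1 between them. Solute carriers other than SLCO1B3 were SLC16A14 at 12.3, SLC23A2, a vitamin C transporter, at 3.97, SLC12A2, the sodium-potassium-chloride cotransporter, at 3.64 and SLC24A1 at 3.10. Cell death genes were BCL2L11 at 4.88 and SIVA1 at 4.19.

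The genes given no group had 61 members with a median of 5.89, and they held the strongest peak of all. TSPY2 had 99.9, and the uncharacterised genes LOC124900868 and LOC124902894 had 44.5 and 40.1, the latter with a second peak of 23.1. TSPY2 is one of several near-identical copies on chromosome Y, so that its fragments could come from several of them. MCC had 29.5 and LTAP1, next to UBAP2L, 13.7. Others with a fold enrichment of at least 10 were PGAP6 at 26.4, XKRX at 22.1, PLPPR2 at 18.9, HSDL1 at 18.7, LOC124907874 at 15.5, TEX9 at 14.8, RHEX at 13.5, LOC124904774 at 11.2 and R3HCC1L at 10.0, besides the uncharacterised LOC124900173 in the peak of ADGRL3 at 13.0. Of 232 genes of the TMEM series 2 had a member (0.862%, beside 1.31% of all protein-coding genes), TMEM164 with 5.65 and TMEM167B with 3.83.

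Lists of genes that bear on SOX4, STAT6 and liver cancer were compared with the members as well. No member lay at the genes listed for Wnt signalling (43 genes), TGF-β signalling and epithelial-mesenchymal transition (20) or folate and one-carbon metabolism (33). None lay at those listed for the hexosamine pathway (11), the SOX family (20), the stemness factors (15), the cell cycle (42) or liver cells (25). The counts hold for the listed genes only, and genes outside the lists can belong to the same pathways. These counts stand beside 1.31% of all protein-coding genes, and at that share most lists of this size hold no member, so that nothing is read from them. SOX4 peaks that overlapped a STAT6 peak, which the choice of members leaves out, did lie near ends of listed genes. They did so at 3 genes of folate and one-carbon metabolism, 1 of the SOX family and 1 of the genes characteristic of liver cells. Across all 27 lists, 52 of 2851 genes (1.82%) had a member.

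A member stood near the ends of more than 1 gene in 34 cases, 31 with 2 genes and 3 with 3. Where both strands were known, the genes faced each other start to start in 9 cases, lay on the same strand in 8, met end to end in 3 and were start to end on opposite strands in 1. The start-to-start pairs were MIB1 and ABHD3, CCDC59 and METTL25, ELF1 and WBP4, H3C3 and H2BC3, H2AC6 and H2BC4, SLC24A1 and INTS14, LTAP1 and UBAP2L, PSMB3 and PCGF2, and CARF and WDR12. Their fold enrichments ran from 3.10 to 13.7. The end-to-end pairs were RNF175 and TLR2, UTS2B and OSTN, and RNF141 and AMPD3, with 36.1, 6.85 and 6.01. On the same strand were ADGRL3 and LOC124900173 with 13.0, SERPINB8 and HMSD with 8.48, PVRIG and STAG3 with 5.10, BCL2L11 and ACOXL with 4.88, HES7 and ALOXE3 with 3.57, H2AC4 and H3C2 with 3.26, SULT1A3 and SLX1A with 2.63, and TOMM40 and NECTIN2 with 2.34. ZNF511 and TUBGCP2 had the mixed arrangement, with 7.65. The remaining 13 members had 3 genes or a gene without a strand. They lay at RPL23A and RAB34 (20.8), ZNF888 and ZNF320 (8.18), LYPLA1 and LYPLA1-TCEA1 (8.0), RDM1 and LYZL6 (7.85), MBD6, DDIT3 and LOC128125814 (6.92), PTCD1 and ATP5MF-PTCD1 (4.19), NXN and LOC124905376 (3.83), H3C4, H2AC7 and H2BC7 (3.36), TM2D2 and ADAM9 (3.21), LGSN, LOC124901228 and LOC128125822 (3.18), ABCC3 and ANKRD40 (3.12), CCR10 and PLEKHH3 (2.71), and POLR2J3 and LOC124901712 (2.59). Conversely, 6 genes had 2 members each. Besides CYP2C18, CYP4F8, DLD, LOC124902894 and ZNF888 this was LOC110384692, with 8.50 and 2.41.

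Members near a STAT6 peak were few. STAT6 peaks lay within 10 kb of 13 members, whose median fold enrichment was 27.8, against a median of 5.0 for the members farther away. Of the 58 members with a fold enrichment of at least 10, 9 lay within 10 kb of a STAT6 peak and 49 did not. The shortest gaps were 821 bp at SULT1A3, 857 bp at HLA-DRB1, 1369 bp at CES1, 1377 bp at LOC124902894 and 1567 bp at CYP4F8. No STAT6 peak lay within 1 Mb of 173 members (74.9%), beside 81.9% of the other SOX4 peaks without a STAT6 peak. Of the 262 genes, 11 also held a SOX4 peak that overlapped a STAT6 peak, in the gene or 1000 bp around it. These were CES1, CYP2C18, CYP4F12, CYP4F3, CYP4F8, HLA-DRB1, KCNK15, LOC124902894, MAS1, SLCO1B3 and SULT1A3, and their 14 members had a median of 25.9. The 217 members at the other genes had a median of 4.92, and 48 of them (22.1%, 17.1% to 28.1%) had a fold enrichment of at least 10. Strong SOX4 peaks were therefore also present at genes far from any STAT6 peak, such as GSTT4, MCC, ADRB3, RYR3 and ZNF586.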

How the data were processed

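CUT&RUN libraries of Hep3B cells were sequenced by the authors for SOX4, STAT6 and IgG, with 1 library each. Per the labels they were aligned with BWA to hg38, and per the study's methods they were processed in Partek Flow. The peak caller and its threshold are not given in the sources used here. The authors deposited for each SOX4 and STAT6 peak its summit, a score, the −log10 of p and of q, and a ratio. That ratio, called fold enrichment here, is to the expected background of the call against IgG. The figures label it as fold enrichment over IgG, although 94 members share the same lowest background. The score, 10 times the −log10 q without its decimals, was not used, and the IgG library was used only through the peak values.

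Positions are 1-based. Genes, promoter windows and strand were taken from RefSeq tables of GRCh38.p14, which held 20056 protein-coding genes, of which 15842 had a strand, and 212 of the 262 genes with a member. Exons and the genome sequence were not used here. Peaks overlapped if they shared at least 1 bp. Fragments and background were solved from fold enrichment and −log10 p with scipy, and 95% Poisson intervals cover the count at the summit. Shares have Wilson 95% intervals and medians have binomial order-statistic intervals. No p-value was computed, since each antibody had 1 library. The member rule and the solving of fragments were tested on simulated data. The members and lists were chosen with earlier results of these data known. Values were given for the 25 members of highest fold enrichment, the 10 nearest a gene end, genes with 2 members, pairs that share a member, genes of the 27 lists, the 5 peaks on each side of the 3000 bp limit, the 5 nearest a STAT6 peak and the 5 widest. A gene with a member is not reported here. The other genes named, and the function groups, were chosen after the values had been seen. Alternatives changed the margin, the overlap rule, the use of the summit, the −log10 q, the fold enrichment and the chromosomes. Python 3.11.15, numpy 2.4.6, scipy 1.17.1, pandas 2.3.3 and matplotlib 3.10.9 were used.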

Additional observations from a re-analysis of the deposited data

How the results depend on the processing

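Most of the values changed little. Of 38 alternatives over 7 results, 29 stayed within the spread set for them. The number of members was 110, 359 and 647 with margins of 1000, 5000 and 10000 bp, and 119 where the fold enrichment had to reach 5, against 231. Where −log10 q had to reach 5, the median fold enrichment was 6.92 and the share with a fold enrichment of at least 5 was 71.3%, because that limit removes weak peaks by construction. The share of members inside a gene was 50.9% with the margin of 1000 bp and 46.2% where the fold enrichment had to reach 5. With a margin of 1000 bp, 32 genes of the lists had a member, an alternative added after seeing the data. Without the members at RPL23A and HNRNPA1 copies the median was 5.08 and without those at genes with a shared peak it was 4.92, both also added after seeing the data. No paired analysis was possible because there were no replicates to pair. The share of members with a SOX core motif in the promoter window was 25% where the fold enrichment had to reach 5 and 12.5% where the peak covered the window, against 15.4%. Enrichment by STAT6 below the weakest peak of its list cannot be seen in these files.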
